A study of Mus musculus with 4 samples.

Results

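The contacts made by the *Lef1* promoter were compared with those made by Leaf, a conserved element upstream of *Lef1*, in the embryonic whisker pad of the mouse. The members were the NlaIII restriction fragments of chromosome 3 that carried a 4C-Seq score from both viewpoints and whose midpoint lay within 1 Mb of either viewpoint. There were 2082 of them, out of 2350945 fragments scored in the series. The interval held 2098 fragments in all, of which 6 had no score from the promoter and 10 had no score from Leaf, because the stretch around each viewpoint was left empty in its own library. The members spanned chr3:130020642-132108635 of GRCm38 (mm10), and their median length was 310 bases (quartiles 187 and 508). Each score was divided by the mean of its own library over the members, so that 1 is the mean of the interval for either viewpoint.

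Each whisker pad viewpoint had 1 library, made from freshly isolated cells of whole whisker pads of untreated OF1 embryos labelled E12.5. The methods give 120 pooled whisker pads and also name a slightly later day for the dissection. The adult kidney of the same strain, also with 1 library per viewpoint, served only as a point of comparison. With no replicate of any of the 4 libraries, no difference had a replicate check, and all values are descriptions of these libraries. Whisker pads hold epithelium, mesenchyme and other cells, so a score is an average over cell types, and 4C-Seq holds no measure of RNA by which the tissue label could be checked. The read depth is unknown, since the scaling of the deposited score was not stated.

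4C-Seq ligates chromatin that lies close together in the nucleus, and reads out which fragments were joined to 1 chosen fragment, the viewpoint. Contacts fall off steeply with distance along the chromosome and are favoured within the same topological domain, in which enhancers commonly meet the promoters they control. *Lef1* encodes a DNA-binding partner of β-catenin in Wnt signalling, and is needed for the formation of hair follicles and whiskers.

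The ends through which the viewpoints were read are shown first, since they fix the positions from which all contacts were scored. The promoter viewpoint fragment was chr3:131107983-131110068, which ended 403 bases before the annotated start of *Lef1*, and it was read through its left end. The Leaf viewpoint fragment was chr3:131019081-131019765, and it was read through its right end, whose last 20 bases lay within Leaf (131.020 to 131.021 Mb). A distance of 89.2 kb separated the middles of the excluded stretches as the methods give them, and all distances are from these middles. The 100 bases of each end are given 5′ to 3′ on the plus strand of GRCm38, with the NlaIII site in capitals.
Lef1 promoter viewpoint, chr3:131107979-131108078: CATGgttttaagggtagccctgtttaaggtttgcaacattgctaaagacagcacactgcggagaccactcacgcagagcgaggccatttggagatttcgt
Leaf viewpoint, chr3:131019670-131019769: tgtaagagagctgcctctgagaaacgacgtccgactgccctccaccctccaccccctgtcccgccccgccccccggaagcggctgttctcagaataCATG

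The promoter library had more fragments above 0 than the Leaf library, and its score was spread more evenly. The raw score averaged 97.3 over the members from the promoter and 61.6 from Leaf. From the promoter 1233 of 2082 members (59.2%) were above 0, and from Leaf 744 (35.7%). The promoter library also had more fragments above 0 away from the locus. The shares were 2.75% against 0.98% on chromosome 3 beyond 5 Mb, and 0.99% against 0.47% on the other chromosomes. The 20 highest fragments held 17.7% of the promoter score and 24.0% of the Leaf score, and the 100 highest held 42.8% and 50.9%. Both profiles peaked beside their own viewpoint. The highest promoter score, 67.8, was at chr3:131113125-131113686 in *Lef1*, 4.64 kb from the middle of its excluded stretch. The highest Leaf score, 59.5, was at chr3:131014316-131014804, 4.98 kb from its own. Scores fell with distance from the own viewpoint (Spearman −0.62 for the promoter and −0.57 for Leaf over 2082 fragments), and rose weakly with GC content (0.22 and 0.14) and with fragment length (0.17 and 0.16). These correlations run over fragments of 1 library each and are given without a p-value.

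**Figure D1:**
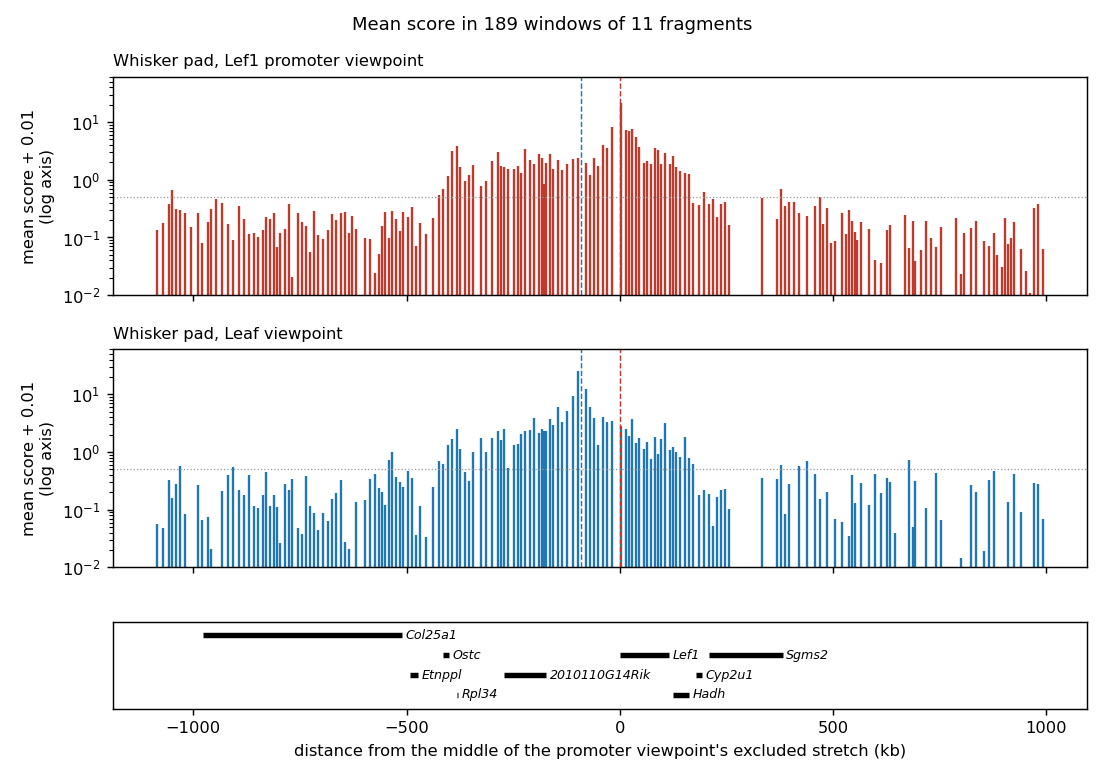
Mean score in 189 windows of 11 fragments (log axis, 0.01 added) against distance from the promoter viewpoint in kb, for the promoter (red) and Leaf (blue) libraries of the whisker pad, with the 9 described genes drawn under them. The dashed lines mark the middles of the excluded stretches (promoter red, Leaf blue), and the dotted line marks a mean of 0.5; both profiles hold their high windows between *Ostc* and *Hadh*.

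The profiles fell away from the viewpoints in different ways. On the telomeric side the mean promoter score was 6.86 at 10 to 25 kb, 5.87 at 25 to 50 kb, 2.50 at 50 to 100 kb, 1.46 at 100 to 200 kb and 0.370 at 200 to 400 kb. On the centromeric side, which holds Leaf and the gene desert, it was 8.20, 3.34, 1.97, 1.98 and 1.94 over the same steps. The promoter score was therefore level from 50 to 400 kb towards the centromere, where 96.6% of 208 fragments at 200 to 400 kb were above 0, against 64.5% of 121 fragments at this distance on the telomeric side. From Leaf the mean centromeric score was 11.6, 4.08, 3.26, 2.03 and 0.90, and the mean telomeric score 5.52, 2.99, 3.09, 1.86 and 0.576. Leaf thus fell on both sides, and was 0.90 against 0.576 at 200 to 400 kb.

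Across all 2082 members the viewpoints had a Spearman correlation of 0.546. The fragments of the 2 libraries share position, length and base composition, and both profiles are highest near the viewpoints, so the correlation carries no p-value. To take out the shared fall with distance, each score was divided by the value that a fall in inverse proportion to the distance from its own viewpoint would give. A corrected score of 1 lies on that line, whose height was set for each library on its fragments above 0. The Spearman correlation of the corrected scores was 0.379. Over the means of 11 consecutive fragments (189 windows) it was 0.734 before and 0.476 after the correction. Of the members, 638 were above 0 from both viewpoints, 595 only from the promoter, 106 only from Leaf and 743 from neither. Of the 744 fragments reached from Leaf, 85.8% were also reached from the promoter, which reached 59.2% of all 2082 members. On chromosome 3 beyond 5 Mb, 4.56% of the 1251 fragments above 0 from Leaf were above 0 from the promoter, and on the other chromosomes 1.89% of 10451 were. Of all fragments in these parts, 2.75% and 0.99% were above 0 from the promoter.

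The locus was then split into 8 stretches at the ends of genes, at the TRACER insertion (an enhancer trap centromeric to *Lef1*, at 130.927 to 130.928 Mb) and at the viewpoints. The 6 stretches from *Ostc* to the end of *Hadh* held most of the score of both viewpoints. The far centromeric stretch held 6.81% of the promoter score and 7.25% of the Leaf score over 709 fragments, and the far telomeric stretch 6.96% and 6.28% over 743 fragments. In these outer stretches the mean scores were 0.200 and 0.213 on the centromeric side and 0.195 and 0.176 on the telomeric side. Their fragments were weakly related between the viewpoints, with Spearman correlations of 0.10 and 0.20. Of the fragments reached from Leaf, 57.7% and 62.6% were also reached from the promoter there, against at least 95% in the inner stretches. The promoter reached 46.5% and 39.3% of all fragments in the outer stretches and 86.1% to 100% in the inner ones, so the inner overlap lay near this background.

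Within the inner stretches, each viewpoint had the higher score on its own side. In the 143 fragments of the *Lef1* gene body outside the excluded stretch, the mean was 5.28 from the promoter and 1.88 from Leaf (log2 ratio 1.44 with 0.1 added to both means). The promoter was higher in 118 of them and Leaf in 25. This gene body alone held 36.2% of the promoter score and 12.9% of the Leaf score. Between the TRACER insertion and Leaf, the mean was 1.87 from the promoter and 6.42 from Leaf over 104 fragments (log2 ratio −1.72), and this stretch held 9.35% and 32.0% of the score. Detection did not follow this difference, as 99.0% of these fragments were above 0 from the promoter and 89.4% from Leaf.

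The other inner stretches had more similar means. From *Rpl34* to the TRACER insertion, a stretch of 197 kb within the gene desert, the mean of 207 fragments was 1.85 from the promoter and 1.70 from Leaf (log2 ratio 0.12). This stretch held 18.4% of the promoter score and 16.9% of the Leaf score. Between the viewpoints the means of 80 fragments were 3.50 and 4.86 (−0.46). From *Ostc* to *Rpl34* the means of 36 fragments were 2.32 and 1.53 (0.57). From the end of *Lef1* to the end of *Hadh* they were 1.66 and 1.15 over 60 fragments (0.49). The Spearman correlation was between 0.33 and 0.42 in 5 of the 6 inner stretches, and 0.10 from *Lef1* to *Hadh*. The ratios rest on the scale: with the median non-zero score of each library as the unit, each was higher, and those between the viewpoints (0.47) and in the far centromeric stretch (0.57) turned positive.

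**Figure D2:**
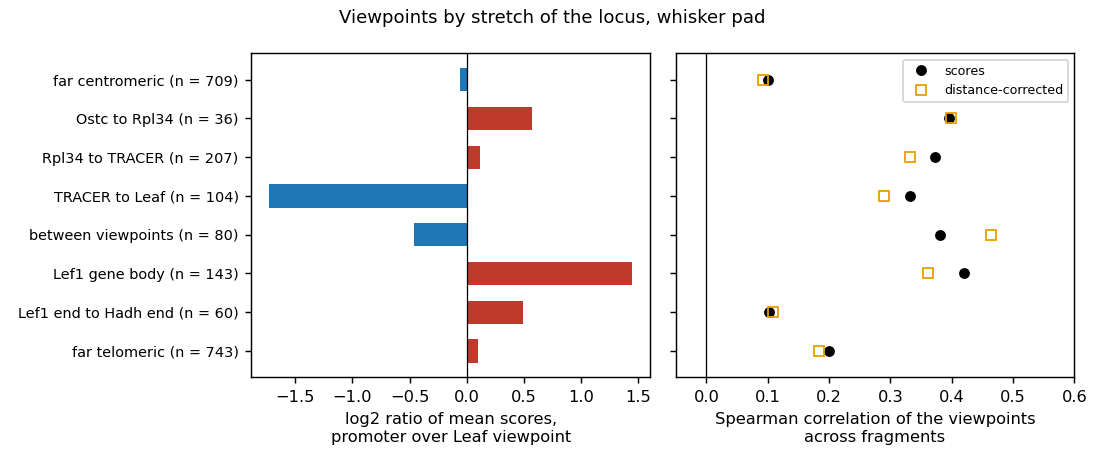
Left, log2 ratio of the mean scores of the promoter and Leaf viewpoints in 8 stretches, from the centromeric to the telomeric side (bars, 0.1 added to both means, n fragments); right, Spearman correlation of the viewpoints across the same fragments before (circles) and after (squares) distance correction. The ratio runs from −1.72 (TRACER to Leaf) to 1.44 (*Lef1* gene body), and each correlation comes from 1 library per viewpoint.

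Between the viewpoints the profiles crossed. The mean promoter score in steps of 10 kb from Leaf was 3.36, 1.36, 1.25, 2.29, 2.80, 3.64, 5.56, 9.21 and 9.40, over 3 to 14 fragments a step. The mean Leaf score in the same steps was 26.0, 5.2, 5.02, 2.83, 3.17, 3.4, 3.21, 3.41 and 3.07. The Leaf score was thus near 3 from 30 kb onward up to the promoter, whereas the promoter score was higher in the first 10 kb at Leaf than in the following steps up to 50 kb. The log2 ratio was −0.17 at 40 to 50 kb and 0.10 at 50 to 60 kb from Leaf. The Spearman correlation over the 80 fragments of this stretch was 0.38, and 0.46 after the correction, but −0.21 over its 7 windows of 11 fragments.

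Windows of 11 fragments were sorted into shared and viewpoint-higher classes by scores not corrected for distance. Closeness to a viewpoint therefore enters each class. A window was called shared when both means were at least 0.5 and differed by less than 2-fold. It was called higher from 1 viewpoint when the larger mean was at least 0.5 and at least 2-fold higher, with 0.1 added to both means. Of 189 windows, 37 (19.6%) were shared, 14 (7.41%) were promoter-higher, 15 (7.94%) were Leaf-higher, 4 lay between these classes and 119 were low from both. No replicate stands behind these classes, and the percentages are the background for each count by stretch. The counts move with the scale, to 86 shared, 67 promoter-higher and 32 Leaf-higher windows when scores were scaled to the mean of chromosome 3, and to 20, 44 and 4 with the median non-zero score of each library as the unit.

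Of the 37 shared windows, 35 lay in the 6 inner stretches, which have 58 windows. The *Rpl34* to TRACER stretch held 14 shared windows among 19, and the *Ostc* to *Rpl34* stretch 4 of 4. The *Lef1* gene body held 5 of 13, and the *Lef1* to *Hadh* stretch 5 of 6. Among the 64 windows of the far centromeric stretch 1 was shared, and among the 67 of the far telomeric stretch 1. The median window had a GC content of 45.0% among the shared, 45.1% among the promoter-higher, 42.2% among the Leaf-higher and 41.6% among the low windows. By location alone it was 44.7% among the 58 inner windows and 41.8% among the 131 outer windows.

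The shared windows with the largest smaller mean were ranked first, and their values are what chose them. The first was chr3:131062122-131073306 between the viewpoints, with a mean of 3.98 from the promoter and 4.03 from Leaf. The second was its neighbour chr3:131073311-131083884, with 3.48 and 3.29. Both lay 29.0 to 60.2 kb from the viewpoints and hold no annotated gene. The third, chr3:131208785-131219736, lay near the 3′ end of *Lef1*, 106 kb from the promoter and 195 kb from Leaf, and its means were 2.85 and 3.15. The others were chr3:130942303-130949987 between TRACER and Leaf (2.78 and 3.65) and chr3:130722917-130732130 at *Rpl34* (3.85 and 2.51). *Rpl34* encodes a protein of the large ribosomal subunit.

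Of the 14 promoter-higher windows, 8 lay in the *Lef1* gene body, and those with the largest ratio were there too. The window chr3:131101610-131118335, which runs across the excluded promoter stretch, had means of 21.8 and 2.76 (log2 ratio 2.94). Further into the gene were chr3:131143767-131151295 (5.55 and 1.40), chr3:131125766-131135792 (6.87 and 1.92) and chr3:131194952-131200821 (3.32 and 0.906), with log2 ratios of 1.91, 1.79 and 1.76. Away from the gene, chr3:130750798-130758278 in the gene desert had 1.21 and 0.299 (1.71), with 11 of 11 fragments above 0 from the promoter and 5 of 11 from Leaf. In the order given, distance-corrected means from the promoter and Leaf began with 1.01 and 1.11, 1.56 and 0.784, and 1.14 and 0.931. In chr3:131194952-131200821 they were 2.20 and 0.707, and in the desert window 3.17 and 0.347. The promoter-higher windows had a median distance of 60.4 kb from the promoter and 150 kb from Leaf.

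Of the 15 Leaf-higher windows, 6 lay between TRACER and Leaf and 2 between the viewpoints. The window next to Leaf on its centromeric side, chr3:131008664-131014804, had a mean of 2.33 from the promoter and 25.2 from Leaf (log2 ratio −3.38). On its telomeric side chr3:131023481-131034400 had 1.98 and 12.49 (−2.60) and chr3:131035206-131044172 had 1.22 and 6.09 (−2.23). After distance correction, the means of these windows were higher from the promoter, at 1.68 and 0.784, 1.18 and 0.412, and 0.626 and 0.561. The other windows of the 5 with the largest ratio were far from both viewpoints and rested on few fragments. They were chr3:131783162-131792491 (0.0567 and 0.712, with 3 of 11 fragments above 0 from Leaf) and chr3:130566076-130572723 in *Col25a1*, which encodes a membrane-bound collagen (0.0870 and 0.702, with 5 of 11). These far windows stayed higher from Leaf after distance correction, at 0.286 and 2.41, and 0.349 and 1.39.

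**Figure D3:**
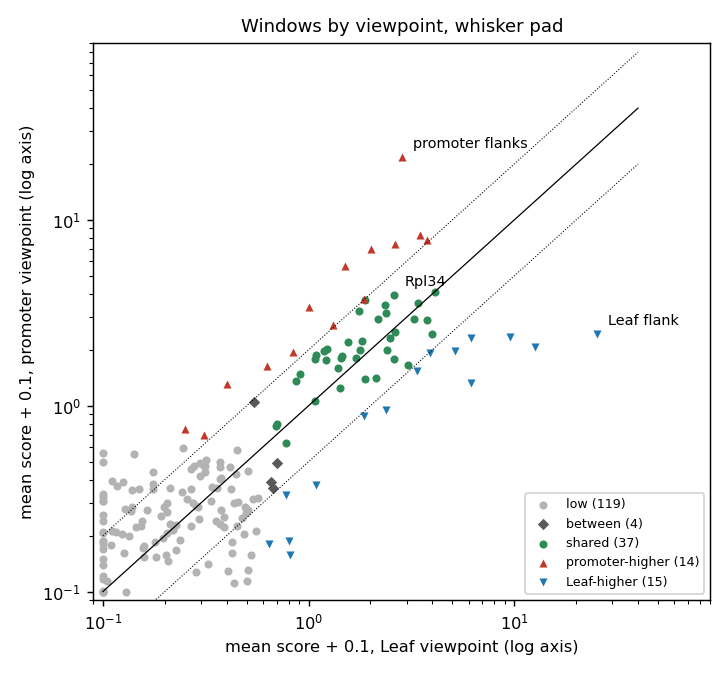
Mean score from the promoter viewpoint against mean score from the Leaf viewpoint in 189 windows of 11 fragments (both axes logarithmic, 0.1 added), coloured by class with the number of windows in each. The solid line marks equal means and the dotted lines a 2-fold difference; 37 windows were shared, 14 promoter-higher and 15 Leaf-higher.

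Among the 9 described genes, *Rpl34* had the highest mean promoter score outside *Lef1*. Among these genes, the highest single promoter score outside *Lef1* was 8.70, in *2010110G14Rik*. The 4 fragments of *Rpl34* had promoter scores of 7.20, 5.92, 2.0 and 5.64. Their Leaf scores were 0.682, 1.26, 0.000325 and 5.30, so that the promoter was higher in 4 of 4. The *Rpl34* means were 5.19 and 1.81 (log2 ratio 1.47), and the fragment that covers the *Rpl34* start held the single high Leaf score. *Ostc*, which encodes a subunit of the oligosaccharyltransferase complex, had means of 0.437 and 0.731 over 15 fragments (−0.63). The long non-coding *2010110G14Rik* in the gene desert had 1.91 and 2.05 over 121 fragments (−0.10). *Hadh*, which encodes a mitochondrial enzyme of fatty acid oxidation, had 1.42 and 1.18 over 46 fragments (0.24). *Cyp2u1*, a cytochrome P450, had 0.679 and 0.141 over 13 fragments (1.69). *Sgms2*, a sphingomyelin synthase, had 0.362 and 0.257 over 93 fragments (0.37). *Etnppl*, a phospholyase, had 0.188 and 0.186 over 24 fragments (0.01), and *Col25a1* had 0.172 and 0.204 over 516 fragments (−0.16). Beyond *Ostc* and *Hadh*, the mean of these genes was under 0.5 from both viewpoints, except for *Cyp2u1* from the promoter.

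After distance correction, 11 of 189 windows (5.82%) had a mean of at least 1.5 from both viewpoints. Of these, 3 lay between *Ostc* and *Rpl34*, 5 between *Rpl34* and TRACER, 2 in the *Lef1* gene body and 1 in the far centromeric stretch, and none lay between TRACER and Leaf, between the viewpoints or telomeric to *Lef1*. The *Rpl34* window had corrected means of 10.9 from the promoter and 3.20 from Leaf. Its neighbour chr3:130711370-130721056, which holds no annotated gene, had 9.10 and 2.20. The window chr3:130816142-130828751 in the gene desert had 6.49 and 1.98, and the window near the 3′ end of *Lef1* 2.23 and 2.68. The fifth, chr3:130073319-130086820, lay 1030 kb from the promoter and had 2.19 and 2.30, with 8 and 4 of 11 fragments above 0 and uncorrected means of 0.287 and 0.559. Just inside the limit of 1.5 were chr3:130803170-130815495 (4.71 and 1.56) and chr3:131135797-131143762 in *Lef1* (1.70 and 1.92). Just outside it were chr3:131256169-131268007 in *Hadh* (1.49 and 1.90) and chr3:130959307-130968175 (2.38 and 1.45). Among the 11 windows, chr3:130772856-130790821 and chr3:130903994-130912870 were Leaf-higher before the correction. The window chr3:131135797-131143762 was promoter-higher before it.

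The mean corrected promoter score was above that of Leaf in all 8 stretches. The height of the line was set for each library, so a difference in level common to all stretches also depends on that choice. The corrected promoter score averaged 6.72 against 2.03 from *Ostc* to *Rpl34*, 3.63 against 1.24 from *Rpl34* to TRACER, and 1.95 against 0.892 from TRACER to Leaf. Between the viewpoints it was 0.891 against 0.663, and in the *Lef1* gene body 1.44 against 1.18. From the end of *Lef1* to the end of *Hadh* it was 1.67 against 1.16. In the far centromeric stretch it was 1.12 against 0.568, and in the far telomeric stretch 0.699 against 0.496. A slope fitted freely to the fragments above 0 was −1.0 for the promoter and −0.62 for Leaf. This fit leaves out the fragments at 0, and only 35.7% of the members were above 0 from Leaf. It therefore does not give the fall of the Leaf scores over all members. With the height set to a mean of 1 in each library, 23 windows in place of 11 reached 1.5 from both viewpoints.

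**Figure D4:**
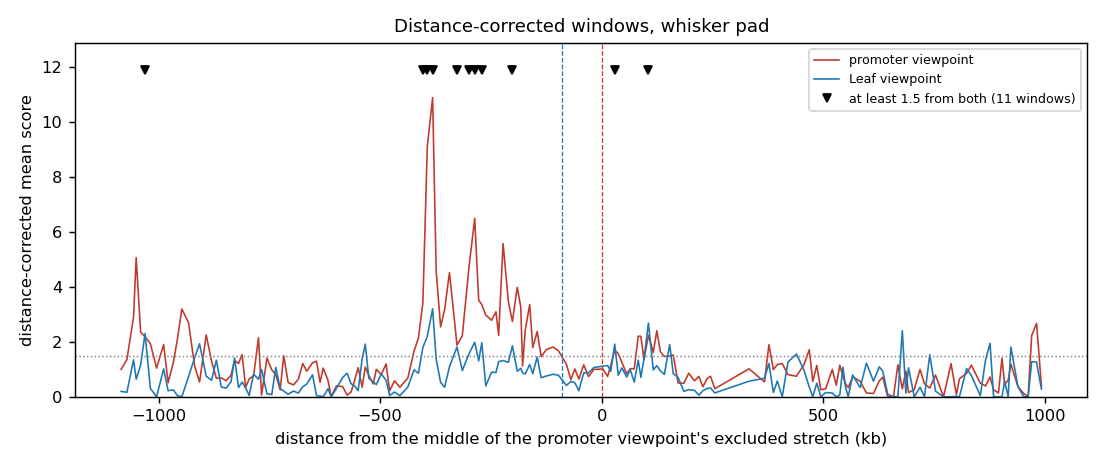
Distance-corrected mean score of 189 windows of 11 fragments against distance from the promoter viewpoint in kb, from the promoter (red) and Leaf (blue) viewpoints of the whisker pad. Triangles mark the 11 windows with a mean of at least 1.5 (dotted line) from both; the highest, at *Rpl34*, has 10.9 from the promoter and 3.20 from Leaf.

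For 3 of the 5 windows with the largest smaller corrected mean, the fragment with the largest smaller score is shown, because both viewpoints reached it. The fragments of the *Rpl34* and far centromeric windows and of the windows ranked lower are not shown, although one of them, chr3:131135797-131136490 in *Lef1*, had higher scores from both viewpoints (12.1 and 9.54) than the *Lef1* fragment shown. The sequences are given 5′ to 3′ on the plus strand of GRCm38, whole, without the flanking NlaIII sites, and the capitals mark DpnII sites, where the second digestion cut.
Lef1 intron, chr3:131212890-131213052: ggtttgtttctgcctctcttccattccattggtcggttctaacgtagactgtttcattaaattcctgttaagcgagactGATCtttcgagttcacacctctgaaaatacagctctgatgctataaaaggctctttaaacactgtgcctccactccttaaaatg
Between Ostc and Rpl34, chr3:130713028-130713115: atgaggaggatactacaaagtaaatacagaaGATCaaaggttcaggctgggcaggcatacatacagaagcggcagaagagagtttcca
Between Rpl34 and TRACER, chr3:130818239-130818515: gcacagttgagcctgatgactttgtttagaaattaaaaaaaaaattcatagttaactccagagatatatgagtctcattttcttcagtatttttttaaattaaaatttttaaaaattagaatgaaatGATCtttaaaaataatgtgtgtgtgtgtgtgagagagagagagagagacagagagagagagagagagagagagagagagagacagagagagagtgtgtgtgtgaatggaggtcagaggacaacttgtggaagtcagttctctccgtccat

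The *Lef1* intron fragment scored 5.92 from the promoter and 4.54 from Leaf. The fragment between *Ostc* and *Rpl34* scored 2.22 and 4.24, and the one between *Rpl34* and TRACER 10.9 and 6.35. This last fragment has a GC content of 35.4% and holds a run of repeated dinucleotides. The 7 letters ATCAAAG, a form of the TCF/LEF binding motif, were searched on both strands. They were found in the 88-base fragment between *Ostc* and *Rpl34*, where they overlap the DpnII site, and in neither of the other two. The motif was in 6.14% of 1091 pieces of 300 bases from the members. These pieces are longer than the fragments searched, so this share is not the background of an 88-base fragment. The match is a description of these letters only.

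The reciprocal contact was read where each viewpoint scored the stretch that was empty in the other library. From the promoter, all 10 fragments of the Leaf stretch (chr3:131015897-131022898) were above 0. Of these, only the Leaf viewpoint fragment overlapped Leaf itself, by 20 bases. The values are therefore those of the stretch around Leaf, and most of the element had no score. Their scores in order along the chromosome were 2.98, 1.82, 4.22, 2.02, 3.34, 9.37, 2.32, 2.08, 1.39 and 3.46. The mean was 3.30, and 2.62 without the highest fragment. The 37 fragments 10 to 30 kb away had a mean of 1.64 (0 to 6.60), so the Leaf stretch was 2.01 times its flanks. The flanks themselves differed, with 2.19 on the centromeric and 1.31 on the telomeric side. At the same distance on the other side of the promoter, around 131.198 Mb inside *Lef1*, the mean of 31 fragments was 2.90 (0.144 to 7.59). The Leaf stretch was 1.14 times this wider site by the mean, but below it by the median, at 2.65 against 2.73. Over 12 fragments there, a stretch of the size of the Leaf stretch, the mean was 3.16.

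From Leaf, all 6 fragments of the promoter stretch (chr3:131105767-131113120) were above 0, and their scores were spread widely. In order along the chromosome they were 14.1, 2.59, 0.328, 0.121, 11.8 and 2.17. The mean was 5.18. The 45 fragments 10 to 30 kb away had a mean of 2.95 (0 to 9.54), so the promoter stretch was 1.76 times its flanks by the mean. By the median it was below them, at 2.38 against 2.64, and without the highest fragment its mean of 3.39 was closer to that of the flanks. At the same distance on the other side of Leaf, around 130.930 Mb and close to the TRACER insertion, the mean of 38 fragments was 2.24 (0 to 8.71). The promoter stretch was 2.31 times this wider site. Over 18 fragments there, a stretch of the size of the promoter stretch, the mean was 1.92.

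The log2 ratio of the 2 reciprocal means was −0.64, with the Leaf viewpoint higher. After distance correction the means were 2.20 for the promoter at Leaf and 2.02 for Leaf at the promoter. The corrected medians were farther apart, at 1.79 and 0.936. Taken over all fragments within 10 kb of the other viewpoint, the uncorrected means were 2.95 (23 fragments) and 3.61 (17 fragments), a log2 ratio of −0.28. The direction of the reciprocal ratio rests on the scale, as it was 0.30 with the median non-zero score as the unit and 0.12 with distance-corrected scores. At the viewpoint fragments themselves the contact was uneven. The promoter scored 2.32 at the Leaf viewpoint fragment (raw score 225.8), whereas Leaf scored 0.121 at the promoter viewpoint fragment (raw score 7.45), a fragment of 2086 bases with 1 DpnII site. The fragment that follows it, chr3:131110073-131111672, holds the annotated *Lef1* start and had the Leaf score of 11.8.

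**Figure D5:**
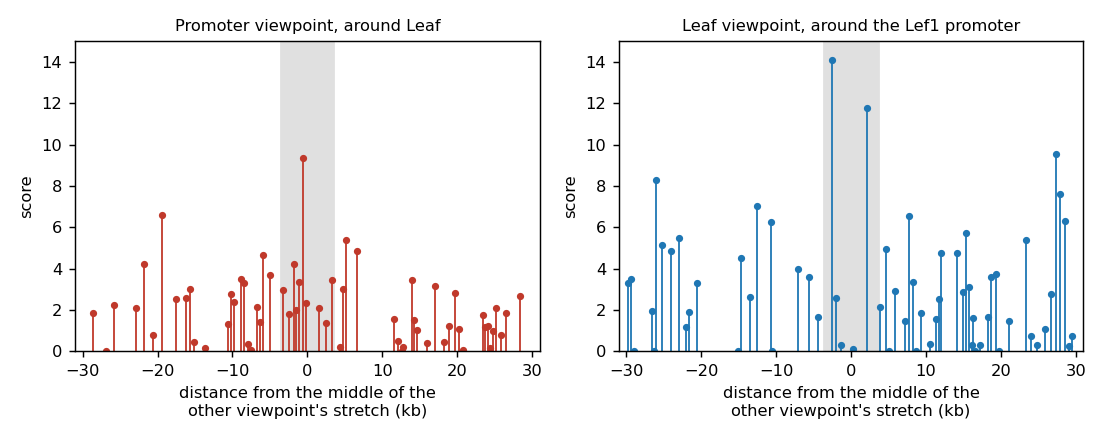
Scores of single fragments within 30 kb of the other viewpoint, for the promoter viewpoint around Leaf (left) and the Leaf viewpoint around the *Lef1* promoter (right). Distance in kb is from the middle of the excluded stretch as the methods give it. The grey band is centred there with the width of the stretch left empty, so the last promoter-stretch fragment (2.17) lies just outside it. The promoter reaches 9.37 in the Leaf stretch, and Leaf reaches 14.1 and 11.8 in the promoter stretch beside fragments at 0.328 and 0.121.

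The highest fragment of each reciprocal stretch is shown, since it holds the largest single share of the score there. For both, the middle 300 bases are given 5′ to 3′ on the plus strand of GRCm38, with DpnII sites in capitals, and both pieces were annotated as intergenic.
Leaf stretch, promoter score 9.37, chr3:131018774-131019073: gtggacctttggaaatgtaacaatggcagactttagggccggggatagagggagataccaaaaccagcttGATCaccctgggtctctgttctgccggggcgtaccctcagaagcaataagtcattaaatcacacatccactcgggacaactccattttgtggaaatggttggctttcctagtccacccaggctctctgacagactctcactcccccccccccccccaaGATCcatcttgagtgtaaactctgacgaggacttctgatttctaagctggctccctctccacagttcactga
Promoter stretch, Leaf score 14.1, chr3:131106027-131106326: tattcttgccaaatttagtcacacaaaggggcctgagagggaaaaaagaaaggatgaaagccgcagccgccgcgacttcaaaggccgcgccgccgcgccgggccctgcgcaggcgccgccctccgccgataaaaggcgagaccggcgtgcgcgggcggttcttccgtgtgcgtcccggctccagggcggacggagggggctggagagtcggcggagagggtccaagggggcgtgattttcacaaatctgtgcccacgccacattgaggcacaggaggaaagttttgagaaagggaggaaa

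The first fragment is 304 bases long, lies next to the Leaf viewpoint fragment but outside Leaf itself, and has a GC content of 51.3%. The second is 822 bases long, with a GC content of 57.1% and 6 DpnII sites, none of them in the printed piece. Neither printed piece holds ATCAAAG.

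In the adult kidney the same 2082 fragments gave sparser profiles, with 28.1% above 0 from the promoter and 13.2% from Leaf. The Spearman correlation between the viewpoints was 0.322 there, against 0.546 in the whisker pad, and 0.272 against 0.379 after distance correction. Of the fragments reached from Leaf, 64.2% were also reached from the promoter. In the *Lef1* gene body the kidney means were 6.86 and 1.46 (log2 ratio 2.16), and between TRACER and Leaf 1.40 and 6.61 (−2.16), so both ratios were farther from 0 than in the whisker pad. With 1 library per viewpoint and tissue, these differences were not tested, nor was the part that the sparser kidney libraries have in them.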

How the data were processed

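4C-Seq libraries from NlaIII and DpnII digests were read from the *Lef1* promoter and from Leaf, 1 library per viewpoint and tissue. The authors demultiplexed the reads, aligned them to mm10 (Bowtie2 is named in the submitters' processing notes, without a version), and deposited a signal per NlaIII fragment, with the stretch around each viewpoint empty. The scaling of that signal was not stated. Only the raw signal was used here, not its running mean, and 0 columns of other samples were met. Members, stretches, windows and named genes were chosen with earlier results of these data known. Scores were divided by the mean over the members, and distance correction assumed a fall with a slope of -1 (log score against log distance), with its constant set on fragments above 0. Windows were consecutive and did not overlap. Named windows were the 5 of each class with the largest ratio (promoter-higher, Leaf-higher) or the largest smaller mean (shared, and shared after correction), with those nearest the 1.5 limit. Genes and gene parts came from GENCODE M21, and sequences from the GRCm38 assembly of RefSeq; fragments that overlap untranslated regions were not printed. Python 3.11.15, numpy 2.4.6, pandas 2.3.3 and matplotlib 3.10.9 were used, and the window functions were tested on simulated data. The alternatives were other scales, window sizes and offsets, minima, pseudocounts, corrections and left-out fragments. Each value comes from 1 library, so no test was run.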

Additional observations from a re-analysis of the deposited data

Results flagged for a closer look

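In 3 stretches the log2 ratio of the promoter over the Leaf viewpoint had opposite signs in the whisker pad and the adult kidney. From *Ostc* to *Rpl34* it was 0.57 in the whisker pad and −0.0341 in the kidney. From *Rpl34* to TRACER it was 0.12 and −0.36, and in the far telomeric stretch 0.10 and −0.41. Ratios of −0.0341, 0.10 and 0.12 are close to equal means, so their sign carries little. In the kidney, 6 of 36, 52 of 207 and 25 of 743 fragments of these stretches were above 0 from Leaf. Each value comes from 1 library per viewpoint, and the differences between the tissues were not tested.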

How the results depend on the processing

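Of 157 recomputed values, 102 moved by less than the limit set for each. In all 10 changed sign, 1 of them (TRACER to Leaf) a ratio past 2-fold. With 1 library per viewpoint, no replicate could be left out. For the same reason, no replicates could be paired. Scaled to the mean of chromosome 3, 86 windows were shared, 67 promoter-higher and 32 Leaf-higher, and the far centromeric log2 ratio was 0.07. Scaled to the median of fragments above 0, these counts were 20, 44 and 4, the reciprocal log2 ratio was 0.30, and the log2 ratios of the 8 stretches from centromeric to telomeric were 0.57, 1.47, 1.02, −0.79, 0.47, 2.36, 1.37 and 0.70. The cause was not tested. Without fragments within 50 kb of a viewpoint, the correlation of all fragments was 0.462, the log2 ratio −0.86 from TRACER to Leaf and 0.69 in the *Lef1* gene body, and 7 windows were promoter-higher. Over fragments above 0 from both viewpoints the correlation was 0.479, and 0.465 in the far telomeric stretch. Over windows of 11 fragments it was 0.734, 0.476 after distance correction, 0.640 from *Rpl34* to TRACER, 0.70 from TRACER to Leaf, −0.21 between the viewpoints (7 windows), 0.681 in the *Lef1* gene body, 0.429 from *Lef1* to *Hadh* and 0.352 in the far telomeric stretch. Pearson correlation of log2 scores gave 0.576. Windows of 5 fragments gave 74 shared, 49 promoter-higher, 47 Leaf-higher and 40 shared after correction, of 416 windows. Windows of 21 fragments gave 21, 6, 5 and 6, of 99. Without the highest fragment of each window, 7 were Leaf-higher and 6 shared after correction. A minimum mean of 0.25 gave 26 promoter-higher and 24 Leaf-higher windows, and a pseudocount of 1 gave 6 and 6. The windows shared after correction were 17 with windows shifted by 5 fragments, 23 with the constant set to a mean of 1, 36 with a limit of 1 and 4 with a limit of 2. By the share of fragments above 0, the log2 ratio from TRACER to Leaf changed sign to 0.15, and it was 1.22 in the far centromeric stretch, 0.14 between the viewpoints, 0.27 in the *Lef1* gene body and 1.45 in the far telomeric stretch. The reciprocal log2 ratio was 0.12 from distance-corrected scores and 0.15 from the medians of the stretches, the latter chosen after seeing the data. The lack of replicates and the unknown depth limit all values.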
